A study of Homo sapiens with 1 sample.

Results

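The large ribosomal subunit is built around 28S rRNA, which is cut out of the 45S pre-rRNA that RNA polymerase I transcribes from the rDNA unit. On one side 28S borders the second internal transcribed spacer (ITS2), and on the other the 3′ external transcribed spacer (3′ETS), and both spacers are removed and degraded as the ribosome matures. The core of 28S folds in much the same way in all organisms and holds the peptidyl transferase centre, where peptide bonds are formed. In animals this core is interrupted by expansion segments, GC-rich stretches that differ in length between species and lie towards the surface of the ribosome, of which ES7L and ES27L are the longest in human 28S.

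Coverage along 28S and the 3′ETS was examined in 10 bp bins of the rDNA unit, where a bin was a member if its deposited region label was 28S or 3′ETS. There were 542 such bins among the 4473 bins of the unit, 505 in 28S (unit position 7921 to 12970) and 37 in the 3′ETS (12971 to 13340). Below, positions in 28S are counted from 1 at the first base of its first bin. The data come from 1 library, a PAR-CLIP negative control of HEK293T cells, a human embryonic kidney line, that carried the SFB empty vector. This vector encodes the affinity tag with no protein fused to it. In PAR-CLIP, cells take up a thiolated nucleoside, here 0.1 mM 6SG, and long-wave UV light (0.4 J per cm2 at 365 nm) then links RNA to bound proteins, after which RNA was isolated with streptavidin resin followed by Flag resin. The study used this library to find RNA that is recovered without BRCA1 or BARD1 as bait; the libraries of the tagged proteins were not analysed here, and no comparison between conditions was made. The library held 33677888 read pairs, of which 49.0% were left unaligned to the genome by STAR and only reads of such pairs could enter the bins. A further 10.4% of pairs aligned to several places, and reads of 28S among those are not in the profile. The paper names a SMARTer Stranded Total RNA-seq kit for library preparation, and its methods do not state whether rRNA was removed at that stage. Whether such removal shaped the profile along 28S was not tested, so low and high bins need not reflect what the resins recovered. Each read adds to all bins that it spans, summed bins therefore do not count reads and are given without a binomial interval, and no value has a replicate error.

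The 28S bins were covered without a gap, but very unevenly. No 28S bin was at 0, the lowest held 11 counts (base 3431 to 3440) and the highest held 408836 (base 2361 to 2370), a 37167-fold range. The exact 95% Poisson interval of the lowest bin, for counting error only, was 5.49 to 19.7. The median bin held 22857 counts, with quartiles of 3878 and 56077, a 14.5-fold span. In 18S, the rRNA of the small subunit, the quartiles differed 2.46-fold and the lowest bin held 14255 counts, so that its whole range was 56-fold. The coefficient of variation was nonetheless alike, 1.39 in 28S and 1.44 in 18S. In 28S, 6 bins held fewer than 100 counts, 59 held 100 to below 1000, 111 held 1000 to below 10000, 260 held 10000 to below 100000 and 69 held at least 100000. The 50 highest of its 505 bins carried 41.8% of the 28S counts, and 67 bins carried 50% of them. In 18S, the 18 highest of 186 bins likewise carried 41.8%.

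**Figure D1:**
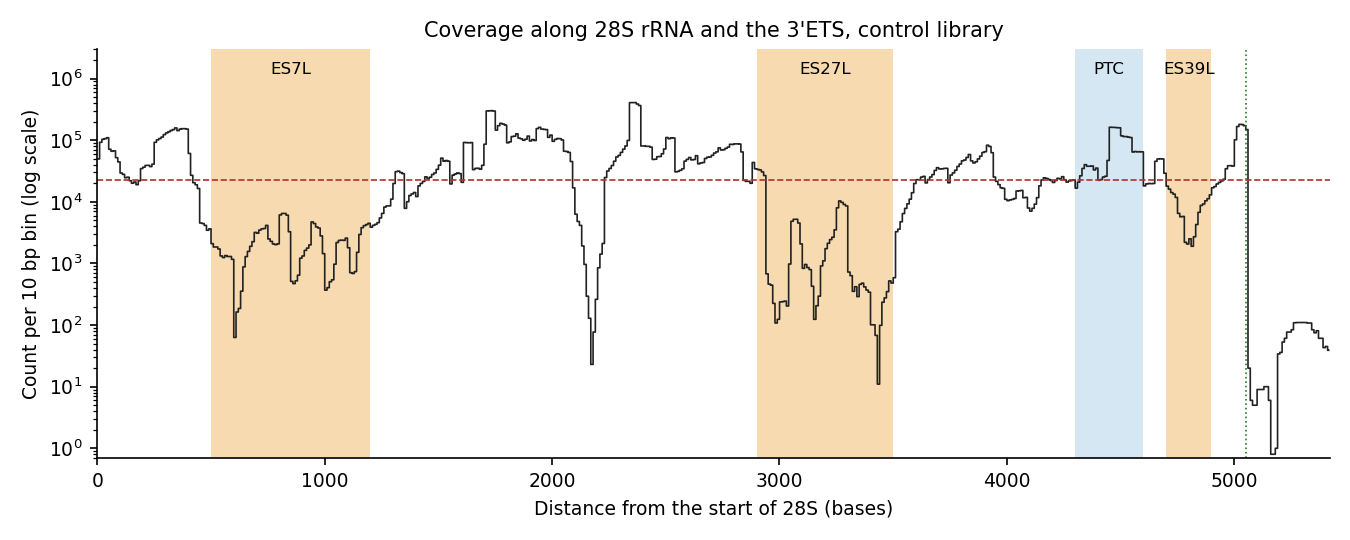
Count per 10 bp bin on a log scale along 28S and the 3′ETS of the control library, against the distance from the start of 28S in bases. Orange bands mark the approximate windows of ES7L, ES27L and ES39L, the blue band the window of the peptidyl transferase centre (PTC), the dashed line the 28S median of 22857, and the dotted line the labelled end of 28S; bins at 0 in the 3′ETS are drawn at the lower edge. The profile falls to 63 within ES7L, to 23 between the windows at base 2171 to 2180 and to 11 within ES27L, and drops from 149320 to 20 just past the end of 28S.

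Among full windows of 500 bases, coverage was highest from base 1501 to 2500, and more of the counts lay on the 5′ side of 28S. The first 252 bins held 62.8% of the 28S counts and the other 253 held 37.2%. Their medians per bin were closer, 27021.0 and 22186.0. In windows of 500 bases, each 9.90% of the bins, the highest share lay from base 1501 to 2000, where the mean was 109108 counts per bin, 2.50 times the 28S mean, and 24.8% of the counts fell. The window from 2001 to 2500 held 18.7%, that from 1 to 500 held 15.4% and that from 2501 to 3000 held 11.3%. The 3 full windows from 3501 to 5000 were close to each other with 7.17%, 8.13% and 7.51%. By contrast, the window from 3001 to 3500 held 0.433% and that from 501 to 1000 held 0.526%, and in both every bin lay below the 28S median. From 1001 to 1500 the share was 2.46%. The last 5 bins, from 5001 to 5050, fill no full window and had a higher mean, 160437 counts per bin.

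Coverage was low in the 3 expansion segments examined, ES7L, ES27L and ES39L. Their inner parts were taken at approximate positions, base 500 to 1200 for ES7L, 2900 to 3500 for ES27L and 4700 to 4900 for ES39L, placed from textbook structure with no sequence alignment, and the other expansion segments of 28S were left among the bins outside these windows. These 150 bins made up 29.7% of 28S and carried 2.47% of its counts. Their mean was 3623 counts per bin against 60453 in the other 355 bins, 16.7 times higher outside the windows, and by medians the difference was 20.9-fold (1826.0 against 38105.0). None of the 150 bins reached the median of the bins outside the windows. The mean inside was 0.0599 times that outside, and it was 0.163 times with the windows moved 100 bases towards the 5′ end and 0.0920 times with each widened by 50 bases on both sides. There is no replicate library, so the size of this difference carries no error.

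The 3 segments were not equally low. In ES7L, which lies on the back of the subunit, the 70 bins ranged from 63 to 6493 with a median of 1875.5, which is 20.3 times below the median outside the windows. In ES27L, a long and mobile segment near the tunnel exit, the 60 bins ranged from 11 to 33589 with a median of 501.0, 76.1 times below. The upper end of the ES27L range came from its first 4 bins, from base 2901 to 2940, which held 33589, 33019, 30665 and 26738 counts before the next bin fell to 679. In ES39L, near the 3′ end, the 20 bins ranged from 1902 to 17993 with a median of 7756.5, 4.91 times below. The window from base 4300 to 4600, which holds the centre of the peptidyl transferase site and lies by the sarcin-ricin loop that elongation factors contact, was in the range of the rest of 28S. Its 30 bins ranged from 16709 to 162525 with a median of 55722.5, 1.46 times that of all bins outside the expansion segment windows.

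**Figure D2:**
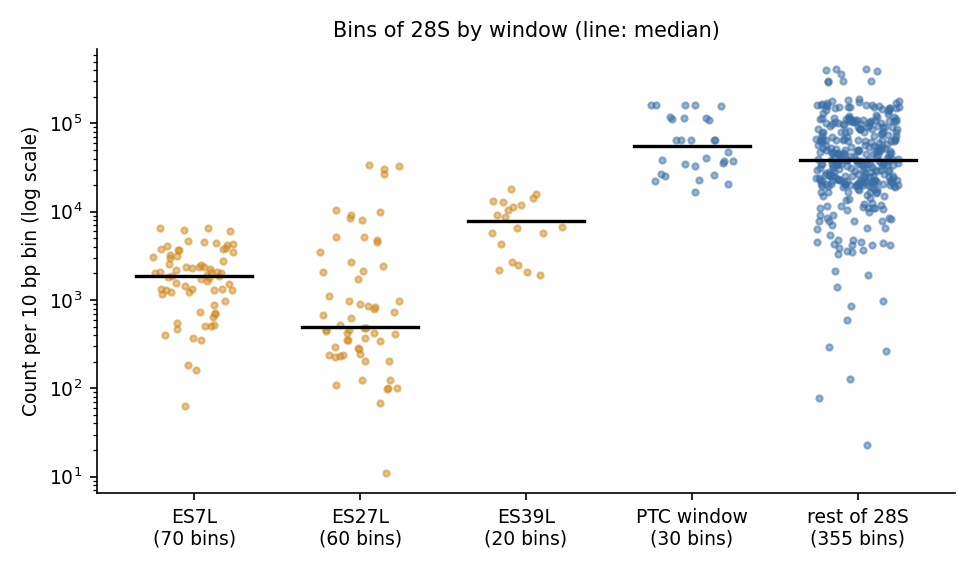
Each point is 1 bin of 28S, with its count on a log scale, for the windows of ES7L, ES27L and ES39L (orange), the peptidyl transferase (PTC) window and all 28S bins outside the 3 expansion segment windows, which include the PTC window (blue); black lines are medians. The medians were 1875.5, 501.0, 7756.5, 55722.5 and 38105.0 in this order, and no orange point lies above the median of the last group.

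Since the bins in these windows were low, leaving them out could only raise the mean and median of 28S. Nothing was left out of 18S, whose values were higher. The median bin of 18S was 2.05 times that of 28S as a whole and 1.23 times that of 28S outside the windows. By means, the ratio was 1.85 for all of 28S and 1.34 outside the windows.

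Near-empty bins, defined as those under 10% of the median of their own region, were next located. In 28S, where this limit was 2285.7 counts, 102 of 505 bins (20.2%) were near-empty. By the same rule, 154 of all 1334 bins of the transcribed unit (11.5%) were near-empty, and these include the 102 of 28S. With a limit of 5% of the median, 66 bins of 28S were near-empty. No bin of 18S or 5.8S was near-empty, and the share was 13.5% for the 3′ETS (5 of 37 bins), 10.3% for ITS2, 7.41% for ITS1 and 7.38% for the 5′ETS. The highest near-empty bin of 28S held 2284 counts and the lowest bin above the limit held 2368. The limit follows each region's own median, and 2284 counts exceed the medians of the 5′ETS (367.5), ITS1 (406.5) and ITS2 (678.0). Together the 102 near-empty bins of 28S carried 0.419% of its counts. They formed 11 runs, and 91 of the 102 bins (89.2%) lay in the expansion segment windows.

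The longest run covered 210 bases from base 3301 to 3510 in ES27L, with a median of 353.0 and the lowest bin of 28S. It began with a fall from 8578 to 725 counts and ended with a rise from 588 to 3281. Next was a run of 190 bases in ES7L, from 501 to 690, whose minimum of 63 lay at base 601 to 610. That minimum was reached in a single step from 1166 counts, an 18.5-fold fall. The third run, from 3091 to 3220, and the fourth, from 2941 to 3050, were also in ES27L, with minima of 124 and 108. The fourth began with the steepest step of 28S, a 39.4-fold fall from 26738 to 679 counts.

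The fifth run lay in none of the windows. This does not place it in the conserved core, since the other expansion segments were given no window. Whether the run lies in one of them was not tested. It covered 100 bases from base 2131 to 2230, and its bins from 2141 held 966, 294, 129, 23 and 77 counts in turn. At its end counts rose from 2112 to 24835 in 1 step, an 11.8-fold rise. All but 1 of the near-empty bins outside the windows belonged to this run, the other being the last bin of the longest run. The 6 shorter runs, of 10 to 90 bases, lay wholly in the windows of ES7L and ES39L.

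High coverage was gathered in few places as well. A local peak was taken as a bin that is the highest within 100 bases on each side and at least 2 times the median of its region, and its width as the run of bins with at least 50% of its count. There were 10 such peaks among the 505 bins of 28S and 4 among the 186 bins of 18S. By the same rule, 29 of all 1334 bins of the transcribed unit (2.17%) were peaks, so 28S was not richer in them. None of the 28S peaks lay in an expansion segment window. None could be called there, since the limit was 45714 counts and the highest bin of these windows held 33589. The 114 bins within the widths of the 10 peaks, 22.6% of 28S, carried 65.4% of its counts. The widths ranged from 40 to 350 bases with a median of 85, and 7 of the 10 peaks were narrower than a full read of 150 bases.

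The highest peak was a block of 50 bases from base 2341 to 2390. Its 5 bins held 407911, 408730, 408836, 387427 and 365937 counts, between neighbouring bins of 99235 and 80709. The first and last bins of the block were thus 4.11 and 4.53 times the bins next to them. This block alone, 5 of 505 bins, carried 8.99% of the 28S counts, and its maximum was 17.9 times the 28S median.

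The second peak was a plateau of 40 bases from base 1711 to 1750. Its 4 bins held 299072, 300431, 302712 and 298125 counts, and the neighbouring bins held 86203 and 146030. At least 70479 alignments lay wholly within these 40 bases, since no more than the sum of the 2 neighbouring counts can have reached beyond them. A plateau of the same width lay 100 bases upstream, from 1611 to 1650, with 92111, 91538, 90977 and 91717 counts between neighbours of 20740 and 33391.

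The fourth peak showed a staircase. From base 4451 to 4500, within the peptidyl transferase window, the 5 bins held 162525, 161805, 161396, 160074 and 159368 counts, and from 4501 to 4550 they held 117979, 114714, 114787, 112281 and 110481. The next 5 bins, from 4551 to 4600, held 64448 to 65673 counts, and the 5 after those, from 4601 to 4650, held 18149 to 19909. Counts changed little within each block of 50 bases and fell between blocks.

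The other peaks were broader or lower. The fifth peak, with 161841 counts at base 1941 to 1950, lay on a stretch from 1701 to 2050 in which every bin held at least 86203 counts and which includes the second peak. The sixth, from 251 to 400, reached 158540, rose from 40940 to 92642 counts at its first base and fell from 151841 to 61089 at its end. The remaining ones reached 180979 at the 3′ end, described below, 110808 (2481 to 2540), 109938 (11 to 80), 87367 (2671 to 2840) and 83000 (3801 to 3940).

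Since several of these edges lay 50 bases apart, the position of abrupt steps was examined along all of 28S. This question was raised by the profile itself, so the following values describe it and test nothing. Of 504 junctions between neighbouring 28S bins, 57 (11.3%) had counts that differed at least 2-fold, against 8.21% of the junctions within all regions of the transcribed unit. These large steps were 26 rises and 31 falls. When 28S was divided into blocks of 50 bases from its first base, each block had 5 possible junctions, and an even spread would place 20% of steps at each. Of the 57 large steps, 27 (47.4%) lay exactly at the border of 2 blocks and 14 (24.6%) lay 1 bin before it. The 3 other positions had 7, 1 and 8.

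The step at a block border had a median size of 1.32-fold over 100 junctions, whereas the medians at the other positions were 1.09, 1.08, 1.08 and 1.15-fold. Read the other way, the highest bin of a block was at the median 1.64 times its lowest when 100 blocks were cut from the first base of 28S, and 2.17, 2.23, 2.01 and 1.77 times when the same cuts were moved by 10, 20, 30 and 40 bases. The profile was therefore flatter inside these blocks than inside blocks cut elsewhere. Among spacings of 30 to 120 bases, the fullest position held 2.37 times its even share of large steps at 50 bases and 2.63 times at 100 bases, a multiple of 50, but between 1.16 and 1.54 times at the 8 others. With the sum of absolute steps in place of the number of large ones, the value at 50 bases was 1.70. That at 90 bases was higher, 2.01, so that the spacing of 50 bases does not stand out by that measure. A wider spacing has more positions from which the fullest is picked, so values at different spacings are not on the same scale.

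The block border was the fullest position from base 1 to 1000 (6 of 10 large steps), from 1001 to 2000 (7 of 11), from 3001 to 4000 (7 of 14) and from 4001 to 5050 (4 of 5). From 2001 to 3000, which holds the highest peak, the fullest position was 1 bin earlier (7 of 17) and the border itself had 3. At the border or 1 bin before it lay 22 of the 32 large steps outside the expansion segment windows (68.8%). Inside the windows it was 19 of 25 (76.0%). Both positions were picked as the fullest in these same steps, so the split describes the pattern and does not test it. In 18S there were 9 large steps, of which 5 lay 21 bases into blocks cut from the first base of 18S, a number too small to describe a spacing. In 5.8S there were none. By the sum of absolute steps, that position held 45.6% in 18S, and the block border held 33.9% in 28S. An uneven spread over the 5 positions was thus not particular to 28S.

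**Figure D3:**
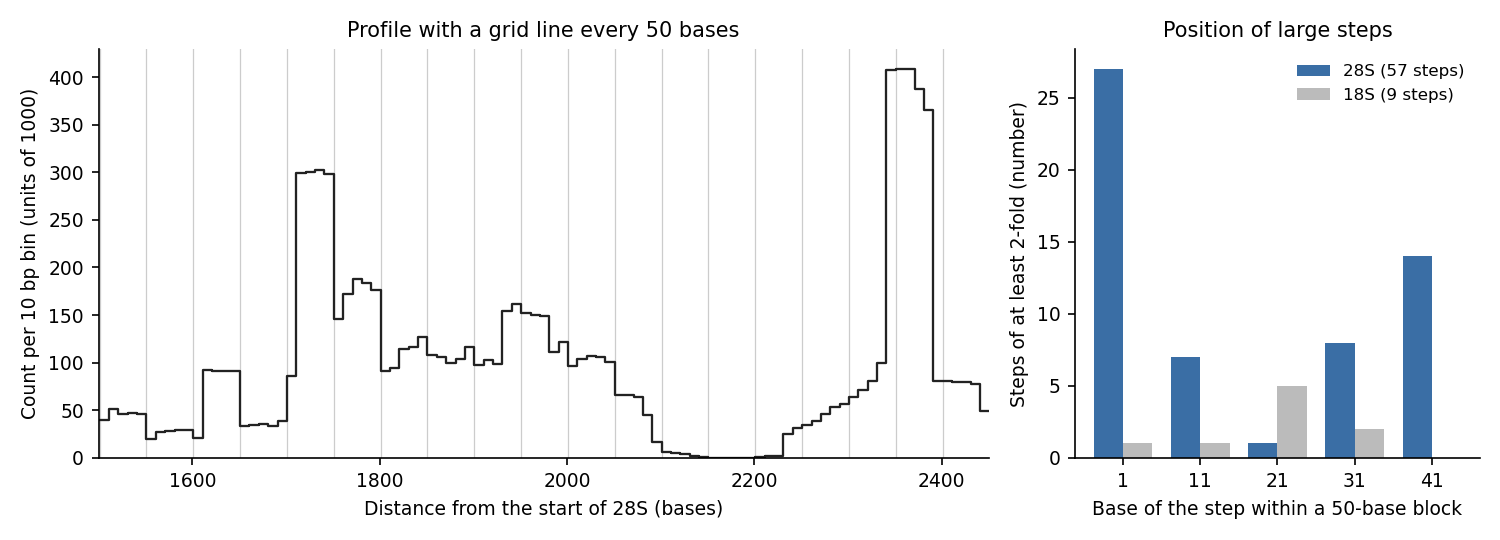
Left, count per 10 bp bin (axis in units of 1000 counts) along part of 28S with a grid line every 50 bases from its first base, showing the plateaus at 1611 to 1650 and 1711 to 1750 and the highest peak at 2341 to 2390. Right, number of junctions between neighbouring bins that differ at least 2-fold, by the base within a 50-base block at which the step lies, for 28S (blue, 57 steps) and 18S (grey, 9 steps, blocks cut from the start of 18S); in 28S, 27 steps lie at base 1 and 14 at base 41.

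The largest single steps of 28S in counts lay between base 401 and base 5011. Counts rose by 308676 at base 2341, by 212869 at 1711, by 115528 at 4451, by 71371 at 1611 and by 65376 at 5011. They fell by 285228 at 2391, fell by 152095 at 1751, fell by 90752 at 401, fell by 85225 at 1801 and fell by 78057 at 2541. A rise between 2 bins needs at least that many alignments that start in the second bin, and the rises of 28S add up, with its first bin, to at least 2022540 alignments. Divided into the 22004288 summed counts, this gives at most 10.9 bins per alignment on average. The mean aligned length in this profile was thus at most 109 bases, below the read length of 150. This bound covers only BLASTN alignments of reads left unaligned to the genome, and does not give the fragment length of 28S in the library. From bins at least 160 bases apart, which cannot share a read, the least number of alignments on 28S was 2162645.

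The 5′ border of 28S was sharp. The last 5 bins of ITS2 held 125, 140, 149, 180 and 989 counts, and the first 5 bins of 28S held 49690, 92665, 103523, 105980 and 109938. The first bin of 28S was thus 50.2 times the last of ITS2, and from base 51 on counts declined to 19004 at base 171 to 180.

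The 3′ end of 28S was covered more deeply than most of the molecule. Counts rose from 38105 to 101764 at base 5001, and the last 5 bins held 101764, 167140, 180979, 179784 and 172520. Their mean of 160437 was 3.68 times the 28S mean, and the bin with 180979 counts was the third highest peak. At the 5′ end, the first 5 bins had a mean of 92359, 2.12 times the 28S mean.

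Coverage continued for 1 bin past the labelled border. The first bin labelled 3′ETS (12971 to 12980) held 149320 counts, 86.6% of the last 28S bin, and the second held 20, a 7466-fold fall at unit position 12981, which corresponds to base 5061. The exact 95% Poisson interval of the second bin was 12.2 to 30.9. The next 3 bins held 6, 5 and 5. The fall thus lay 1 bin, or up to 10 bases, downstream of the labelled border, and the first bin held 98.8% of all counts labelled 3′ETS. Where in that bin the alignments ended cannot be read from the counts. Whether that bin belongs to 28S or to the spacer cannot be told apart at a bin width of 10 bases, since a bin has 1 label.

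**Figure D4:**
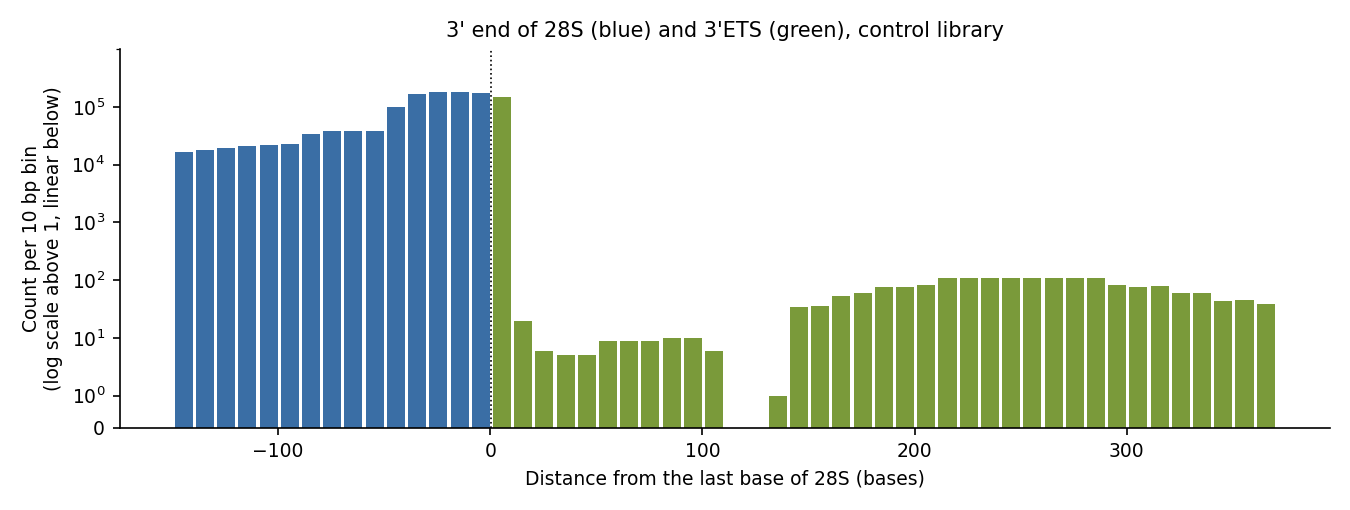
Count per 10 bp bin against the distance from the last base labelled 28S, for the last 15 bins of 28S (blue) and all 37 bins of the 3′ETS (green); the axis is logarithmic above 1 and linear below. The first 3′ETS bin stands at 149320, the next at 20, 2 bins are at 0, and the others do not exceed 110.

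The rest of the 3′ETS was nearly empty, in the sense that its 36 bins after the first summed to 1876 counts. Their median was 49.0 and their mean 52.1, and the mean of 28S was 836 times higher. The median over all 37 bins was 53.0, whereas the other spacers of the same precursor had medians of 367.5 (5′ETS), 406.5 (ITS1) and 678.0 (ITS2). By the same measure the intergenic spacer, which lies between rDNA transcription units, had 5.00.

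Within the 3′ETS, the part next to 28S was the lower one. The 13 bins from 12981 to 13110 held at most 20 counts each with a median of 6.0, and 2 of them (13081 to 13100) were at 0, which allows up to 3 counts in a bin. The 23 bins from 13111 to 13340 held 34 to 110 counts with a median of 77.0, and 5 neighbouring bins from 13191 to 13240 all held 110. The last bin of the 3′ETS held 39 and the first 5 bins of the intergenic spacer held 0 to 10.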

How the data were processed

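One PAR-CLIP library of HEK293T cells with the SFB empty vector was analysed. For library preparation the methods name the Clontech SMARTer Stranded Total RNA-seq kit, and they do not mention a step that removes rRNA. The authors aligned cleaned paired reads of 150 bases to T2T-CHM13 with STAR (2.7.6a in the submitters' processing notes; the methods give another version), and aligned the reads left over to the 45S sequence of the human rDNA unit by BLASTN. The deposited counts per 10 bp bin are whole numbers and were used as counts, although the methods call them normalized. Pair totals came from the deposited STAR counts, and gene counts by featureCounts (2.0.2) were not used.

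Bins were selected by region label. Regions, 500-base windows, near-empty bins, peaks and steps were summarised by fixed rules, given where first used. With 1 library there was no test. Members and lists were chosen with earlier results of these data known, and the bins named are the ends, peaks, 5 longest near-empty runs, 5 largest rises and falls, extreme windows, and the plateau at 1611, the staircase after 4550 and step positions, chosen after values were seen. No sequence of 28S was used. Counting error alone underlies the Poisson intervals, and without molecular identifiers PCR copies of 1 molecule cannot be set apart. The code (Python 3.11.15, numpy 2.4.6, pandas 2.3.3, matplotlib 3.10.9) was tested on simulated data.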

Additional observations from a re-analysis of the deposited data

How the results depend on the processing

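No paired analysis was possible because the data hold a single library, and with no replicate or interval any change of a printed value is given as a change. The cause was not tested. Leaving out the highest 1% of bins, the share of 28S in the transcribed unit was 60.8% in place of 56.9%. Without the 5 highest bins of 28S, its highest 500-base window held 27.2% in place of 24.8% and its lowest 0.476% in place of 0.433%, and these were the same windows. The mean of the expansion segment windows was 0.0599 times that of the rest of 28S. It was 0.0479 by medians, 0.0651 without the 5 highest bins, 0.0920 with windows widened by 50 bases on each side, 0.0803 with windows moved 100 bases towards the 3′ end and 0.163 towards the 5′ end, so the size depends on where the approximate windows lie. The 102 near-empty bins became 66 at 5% of the median, 141 at 20% and 136 at 10% of the mean, and the 10 peaks remained 10 in number at 3 times the median and became 8 with 160 bases on each side. The 3′ETS mean was 9.38% of the 28S mean, but 0.120% without its first bin and 0.232% by medians. The block border and the position 1 bin before it were picked as the fullest. The 40% that an even spread gives is therefore not the share to expect of them. Of the large steps, 71.9% lay at a block border or 1 bin before it. In settings chosen after seeing the data, this share was 73.2% for steps of at least 1.5-fold, 71.4% for 3-fold, 80.0% with at least 10000 counts on the higher side and 65.0% of the sum of absolute steps. Depth limits mainly the 3′ETS, whose bins after the first hold 0 to 110 counts, and the lowest bins of 28S.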
